A study of Rattus norvegicus with 2 samples.

Results

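The nuclear genes for the subunits of the mitochondrial respiratory chain and ATP synthase were followed in IEC6 cells, a non-transformed epithelial cell line from rat small intestine. Cells had been exposed for 60 min to 100 µM sodium trisulfide (Na2S3), an inorganic polysulfide salt, or to water as the control. The dose is uncertain, since the treatment protocol states 100 mM where the sample's own label states µM. No genetic change is described for either group, and the treatment medium was DMEM with a low content of FCS. Each group is 1 RNA sample on 1 single-colour (Cy3) Agilent array. There is therefore no spread between cultures to set a difference against, no test was run, and precision is limited by having 1 array per group. "Higher" and "lower" describe these 2 arrays only.

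The members were taken by a rule on gene names, which was set with earlier results of these data known. It took names starting with Ndufa, Ndufb, Ndufc, Ndufs, Ndufv, Uqcr, Atp5 or Cox4 to Cox8, together with Sdha, Sdhb, Sdhc, Sdhd, Cyc1 and Cycs. The assembly factors named Ndufaf, names holding -ps and LOC names were left out. The rule found 112 of 45598 probes and 84 of 27103 genes with a symbol. Of those 84 genes, 81 code for subunits (109 probes). The other 3 are matched by name only: Cox7a2l, a factor of supercomplex assembly, had a log2 ratio of -0.15, Atp5sl (now Dmac2) had -0.06, and Atp5s (now Dmac2l) had 0.17. Of the 81 subunit genes, 76 were measured, meaning that at least 1 probe was well above background on both arrays. A further 2 were above background on 1 array alone and 3 on neither.

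The respiratory chain sits in the inner mitochondrial membrane. Complexes I and II pass electrons from NADH and succinate to coenzyme Q, complex III passes them to cytochrome c, and complex IV passes them to oxygen. The protons pumped on the way drive ATP synthase, complex V. Most subunits are encoded in the nucleus, while some core subunits of complexes I, III, IV and V come from mitochondrial DNA, whose genes were not analysed here. The chain also meets sulfide directly: sulfide:quinone oxidoreductase feeds electrons from hydrogen sulfide into coenzyme Q, and hydrogen sulfide is a known inhibitor of complex IV.

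Epithelial markers were present in part. Of 11 markers of intestinal epithelium, 7 were measured. The brightest were Cdh1 (signal 14703 on the water array and 16264 on the Na2S3 array) and Krt8 (15892 and 18283). The other measured ones were dimmer, from Krt18 at 142 and 158 to Cdx1 at 2086 and 2051. Epcam, Vil1, Cdx2 and Cldn7 were not well above background. Of 9 fibroblast and mesenchyme markers 7 were measured, with Col1a1 at 71687 and 70180 and with Pdgfra and Pdgfrb not above background. These 7 ran from Acta2 at 65.8 and 63.0 to Col3a1 at 91981 and 108685. The median signal was 41913 over the measured fibroblast and mesenchyme markers, against 695 over the measured epithelial ones. Immune markers were dim or below background, with Ptprc at 29.2 and 27.1, and of 3 endothelial markers Vwf stood at 2485 and 2253, Cdh5 at 42.6 and 48.7 and Pecam1 was not above background. No measured marker in these lists differed by 1.5-fold between the arrays. The arrays lay on the same slide and were scanned on the same day, and no spot was saturated.

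Signals are the scanner software's processed spot intensities, which are background-subtracted. Each array was scaled to the 75th percentile of its non-control probes, 413 intensity units for water and 478 for Na2S3, which removed a shift of 0.21 on the log2 scale. Ratios are always Na2S3 over water on the log2 scale after this scaling, so a gene with the same signal on both arrays has a ratio of about -0.21. The error given with a ratio is the SD of a single-spot ratio among probes spotted 10 times at similar signal. It was 0.36 below a signal of 64 and 0.06 above 32768, and it covers spots, not cultures. For the measured subunit genes its median was 0.07, and 75 of the 76 genes were read by 1 spot.

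None of the 76 subunit genes measured on both arrays reached a 1.5-fold difference in either direction. Among all 13019 measured genes 6.37% did, 2.95% being higher and 3.42% lower on the Na2S3 array. With normexp background correction in place of the software's own, Ndufb2 passed that limit, at -0.61, as did 2.65% of all genes under that setting. Nor did any of the 76 reach 2-fold, which 0.945% of all genes did upwards and 0.614% downwards. The 76 ratios ran from -0.58 for Ndufb2 to 0.31 for Ndufs4, with a median of -0.19 and a middle range of -0.26 to -0.10. All measured genes together had a median of -0.04. The SD of the subunit genes was 0.14, against 0.34 over all genes, 0.15 over proteasome subunits and 0.10 over cytosolic ribosomal proteins. Of the 76, 55 lay within 0.25 of 0, or 72.4%, against 69.6% of all genes.

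The subunit genes therefore sat slightly below the bulk of the transcriptome on these arrays, as a group and without large single differences. Of the 76 genes, 72 had a ratio below 0 (94.7%), against 56.6% of all genes, and 70 were below the median of all genes. The place of 0 itself rests on the scaling. Without any scaling, a setting added after the data were seen, the subunit median was 0.02 and 35 of 76 genes were below 0, while the median of all genes was 0.17. The gap between the subunit median and the median of all genes was -0.15 in both cases. Scaling cannot change this gap, since it moves all genes of an array alike. With quantile normalization or loess, which can change it, the gap was -0.07.

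**Figure D1:**
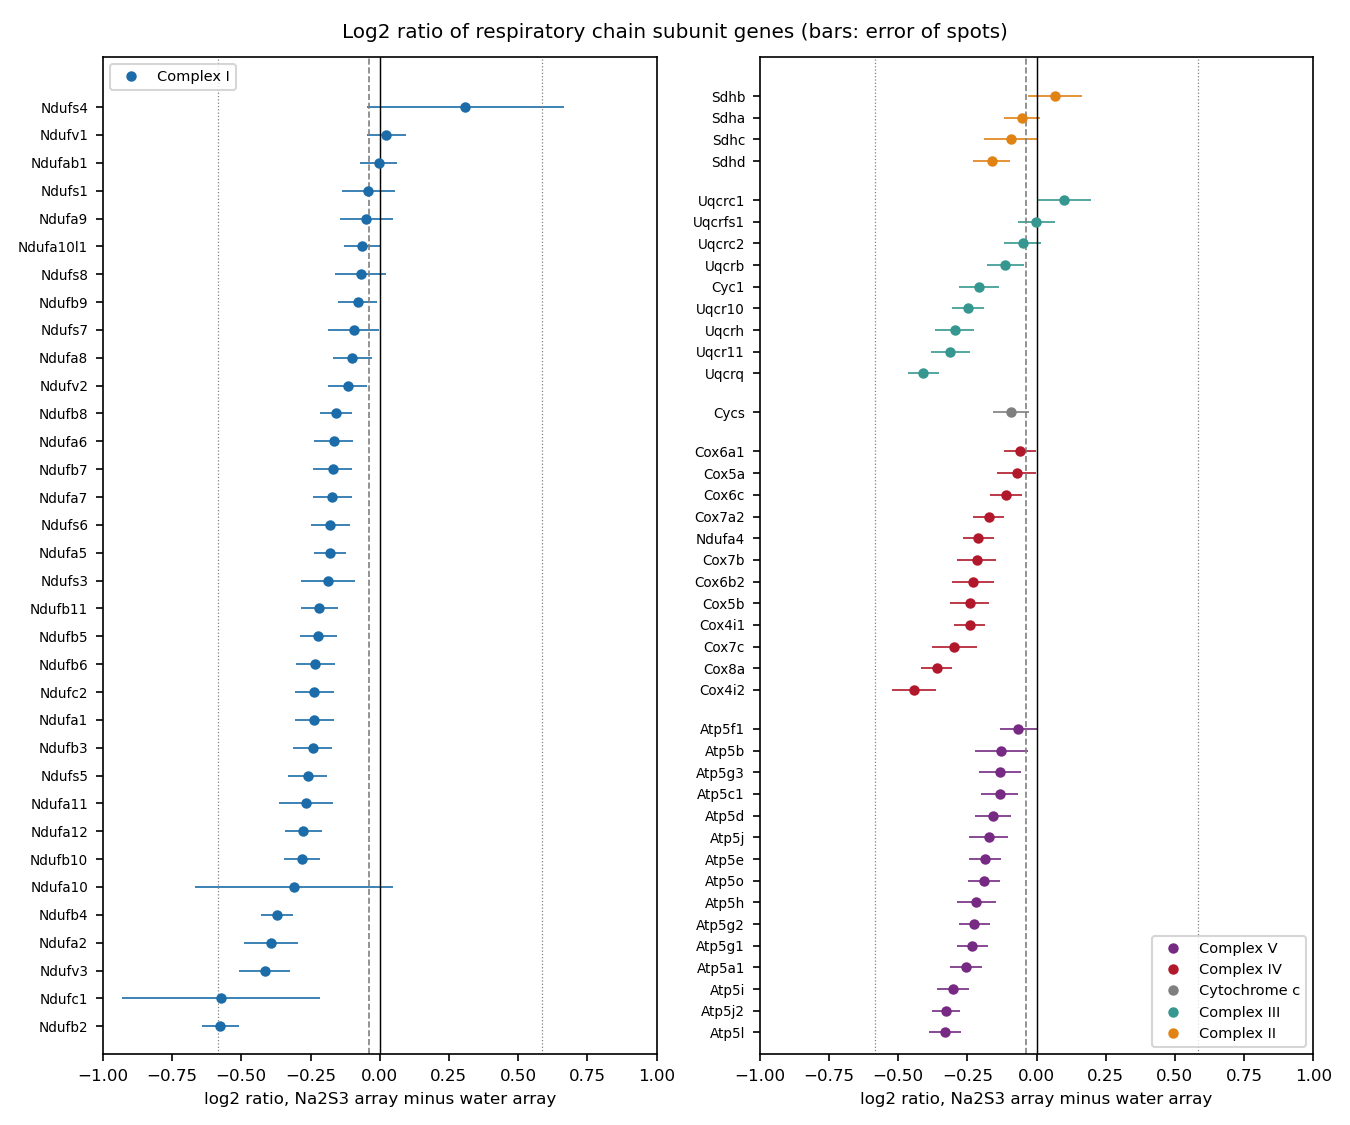
Log2 ratio (Na2S3 array minus water array, horizontal axis) of 75 of the 76 measured subunit genes, coloured by complex, with bars for the error of spots. The dashed line marks the median of all genes (-0.04) and the dotted lines 1.5-fold either way. Every point lies inside the dotted lines, and most lie left of 0.

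**Figure D2:**
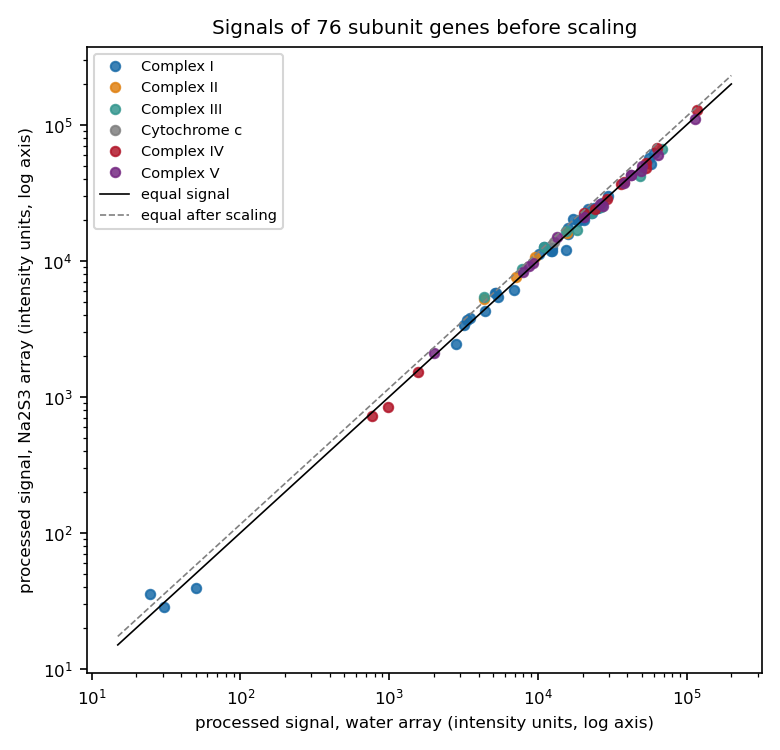
Processed signal before scaling of the 76 subunit genes on the water array (horizontal, log axis) and the Na2S3 array (vertical, log axis), in intensity units. The solid line marks equal signal and the dashed line equal signal after scaling; most genes lie between or near these lines, from 24.8 to 117131 on the water array.

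Complex I, the NADH dehydrogenase, had 35 measured genes with a median log2 ratio of -0.18, and 33 of them were below 0. With quantile normalization the median was -0.094 with 27 below 0, and without scaling it was 0.029 with 16 below 0. Ndufb2, an accessory subunit of the membrane arm, read 15546 on the water array and 12046 on the Na2S3 array, a ratio of -0.58 with an error of 0.07. Its signal was thus lower on the Na2S3 array even before scaling. It is the subunit gene nearest to the 1.5-fold limit that was also well measured. Ndufc1, another accessory membrane subunit, had nearly the same ratio, -0.57, but at signals of 50.5 and 39.2, where the error is 0.36. Ndufb4, an accessory subunit read by 3 probes, had signals of 57858 and 51707 on its brightest probe and a ratio of -0.37. Its 3 probes gave ratios from -0.39 to -0.31 and so differed little among themselves.

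The highest complex I ratio was that of Ndufs4, an accessory subunit whose loss causes a form of Leigh syndrome. Its signals were 24.8 and 35.5 and its ratio was 0.31, with an error of 0.36, so its direction is not resolved. With normexp background correction it was -0.04. Ndufa10, at 30.5 and 28.4, had a ratio of -0.31 with the same error. Its near copy Ndufa10l1 read 10219 and 11292 with a ratio of -0.06. The files place the probes of both in the same stretch of rat chromosome 9, so the signals of these genes are uncertain.

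Complex I members differed by role. The 7 nuclear catalytic core subunits carry the flavin and iron-sulfur clusters of the arm that reaches into the matrix, and their median was -0.09. The other 28 measured subunits, mostly small accessory proteins, had a median of -0.23. Ndufv1, which binds NADH and the flavin, read 17177 and 20159, a ratio of 0.02 with an error of 0.07. Ndufs1, the largest iron-sulfur subunit, read 5154 and 5788, a ratio of -0.04. Other core genes were Ndufs8 at -0.07, Ndufs7 at -0.09, Ndufv2 at -0.12 and Ndufs3 at -0.19. Among accessory subunits, Ndufab1, the mitochondrial acyl carrier protein, stood at -0.0034, and Ndufa9, at the junction with the membrane arm, at -0.05. Core and accessory ranges overlapped, and the division was made after the values had been seen, so it is a description without a test.

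Ndufv3 codes for a small subunit next to the NADH-binding site and is known to have a short and a long form that differ by an exon. The array reads it with 2 probes that went in opposite directions, and their sequences are shown because they lie in different parts of the gene. On the rn4 assembly the file places the first at chr20:9952694-9960046, plus strand. It is 60 bases long but spans 7353 bases of genome, so it lies across a splice junction. The second lies at chr20:9957258-9957317, plus strand, inside the stretch that the first one skips. Both have 45% GC, and their longest shared run is 5 bases. Neither sequence has letters in capitals, since none was singled out.
Ndufv3 junction probe: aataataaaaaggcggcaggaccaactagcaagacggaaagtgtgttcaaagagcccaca
Ndufv3 internal probe: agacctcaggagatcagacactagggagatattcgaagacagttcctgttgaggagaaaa

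The junction probe read 2825 on the water array and 2446 on the Na2S3 array, a ratio of -0.42 with an error of 0.09. The internal probe read 1661 and 2262, a ratio of 0.24 with an error of 0.08. The probe that skips the internal stretch was thus lower, and the probe inside it higher, on the Na2S3 array, before and after scaling and each read by 1 spot. The probes differed by 0.65, the widest range between probes of any subunit gene. Over the 23 subunit genes with several measured probes the median range was 0.10, and 3 of the 23 had probes of opposite sign (Ndufv3, Uqcrq and Cycs). Subunit genes had a narrow spread here. The SD between probes of a gene was 0.13 for them, against 0.24 over the 3214 genes with several probes. Whether the Ndufv3 difference comes from the short and the long form was not tested. The 2 probes had opposite signs under every setting tried, and the difference ran from 0.56 with normexp background correction to 0.65.

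Complex II, succinate dehydrogenase, is the complex that is encoded wholly in the nucleus, and its median was -0.07, or 0.0028 with quantile normalization and 0.14 without scaling. All 4 of its genes had a higher raw signal on the Na2S3 array. Sdha, the flavoprotein that oxidises succinate, read 9644 and 10742, a ratio of -0.05 with an error of 0.07. Sdhb, the iron-sulfur subunit, read 4364 and 5278, a ratio of 0.07 with an error of 0.10. The membrane anchors followed, Sdhc at 7090 and 7678 with a ratio of -0.09 and Sdhd at 15625 and 16130 with -0.16.

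Complex III, the cytochrome bc1 complex, had 9 measured genes with a median of -0.21 and 8 below 0. With quantile normalization the median was -0.052 with 6 below 0, and without scaling it was 0.00018 with 4 below 0. Uqcrfs1 and Uqcrc2 changed sign with quantile normalization, and without scaling Uqcrb and Cyc1 did so as well. Uqcrq, a small subunit of the membrane part, was the lowest. Its bright probe read 48458 and 42168, a ratio of -0.41 with an error of 0.06, and its other probe, with signals of only 55.0 and 63.6, gave 0.0020 with an error of 0.36. The other small subunits were also low. Uqcr11 stood at -0.31, Uqcrh, the hinge protein that helps cytochrome c dock, at -0.30, and Uqcrb at -0.11. Uqcr10 read 68836 and 66970 with a ratio of -0.25, and its second probe gave -0.43.

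The larger subunits of complex III stood higher. Uqcrc1, a core protein, read 4374 and 5418, a ratio of 0.10 with an error of 0.10. Uqcrfs1, the Rieske iron-sulfur protein, read 10943 and 12634, a ratio of -0.00065 with an error of 0.07. Uqcrc2, the other core protein, was at -0.05. Cyc1, cytochrome c1, read 22646 and 22649 and had a ratio of -0.21. The median of these 4 genes was -0.03, against -0.30 for the 5 small subunits. The groups overlapped through Cyc1 and Uqcrb, and this division too was made after the values had been seen.

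Cycs codes for cytochrome c, the soluble carrier between complexes III and IV that is also released in apoptosis. It read 12812 and 13878, a ratio of -0.09 with an error of 0.07, and its second probe gave 0.0060. Neither probe was further from 0 than 2 spot errors.

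Complex IV, cytochrome c oxidase, had 17 subunit genes on the array, of which 12 were measured. Their median was -0.22 and all 12 were below 0. With quantile normalization the median was -0.061 with 9 below 0, and without scaling it was -0.015 with 8 below 0. Cox5a, Cox6a1 and Cox6c were above 0 with quantile normalization, at 0.03, 0.20 and 0.08. Cox4i2, an isoform of subunit 4 known from lung and from hypoxia, was lowest with signals of 985 and 837, a ratio of -0.44 and an error of 0.08. The general isoform, Cox4i1, read 53616 and 52387, a ratio of -0.24 with an error of 0.06. Cox8a, the general isoform of a small membrane subunit, read 53745 and 48341, a ratio of -0.36. Cox7c, another small subunit, stood at -0.30, and Cox5b at -0.24. Cox6b2, an isoform known from testis, read 1559 and 1536 with a ratio of -0.23.

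The highest complex IV genes were near the bulk of all genes. Cox6a1, the general isoform of a regulatory subunit, read 117131 and 129771, a ratio of -0.06 with an error of 0.06. Cox5a, which binds thyroid hormone metabolites and forms part of the matrix face, was at -0.07, although its other probe gave -0.26. Cox6c was at -0.11 and its other probe at -0.27. Ndufa4, once counted with complex I and now with complex IV, was at -0.21.

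The tissue-restricted isoforms of complex IV were at or near background, apart from Cox4i2 and Cox6b2. Cox6a2, known from heart and skeletal muscle, and Cox7b2 and Cox8c, known from testis, were not well above background on either array. Over all 27103 genes, 3.92% were well above background on 1 array alone. Of the subunit genes this applied to 2, both in complex IV. Ndufa4l2, a hypoxia-inducible relative of Ndufa4, read 3.81 on the water array and 44.4 on the Na2S3 array with 1 of its 2 probes. That is at least 2.10-fold higher on the Na2S3 array. The bound sets the bright value against the lowest signal of any probe well above background on the water array (18.3), both scaled. Its other probe was not above background on either array, at 3.92 and 4.51, so the probes do not bear each other out. Cox8b, known from muscle and brown fat, read 26.9 and 13.4, at least 1.51-fold lower by the same kind of bound (20.5 on the Na2S3 array). Each rests on 1 spot at signals where the error is 0.36.

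Complex V, ATP synthase, had all 15 genes measured, with a median of -0.19, all 15 below 0 and an SD of 0.08. With quantile normalization the median was -0.075 with 14 below 0, and without scaling it was 0.019 with 7 below 0. The catalytic head is built from Atp5a1, Atp5b, Atp5c1, Atp5d and Atp5e, the genes of subunits alpha to epsilon, now named Atp5f1a to Atp5f1e. Atp5a1 read 113688 and 110058, a ratio of -0.25 with an error of 0.06, and its second probe gave -0.29. Atp5b, the subunit that holds the catalytic sites, read 7898 and 8350, a ratio of -0.13 with an error of 0.10. Atp5c1, the rotating shaft, was also at -0.13. The median of the 5 head genes was -0.16, and that of the other 10 was -0.22.

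The lowest complex V genes code for small membrane subunits. Atp5l (subunit g) stood at -0.33 and Atp5i (subunit e) at -0.30. Atp5j2 (subunit f) was read by 2 spots, at 27020 and 28068 on the water array and 24438 and 26344 on the Na2S3 array, a ratio of -0.33. All of its Na2S3 spots were thus below its water spots before scaling. The highest was Atp5f1 (subunit b of the stalk) at -0.07. Of the 3 genes for the proton-carrying subunit c, Atp5g1 was at -0.23, Atp5g2 at -0.22 and Atp5g3 at -0.13.

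One subunit gene had a probe in 10 spots, which shows the spread of repeat spots but not that of probes or cultures. That probe of Atp5g2 read 15896 to 16505 on the water array and 16265 to 17615 on the Na2S3 array. The ratio averaged -0.15 with an SD of 0.04 over the 10 spot pairs, which were all below 0, from -0.20 to -0.06. Its raw signals were slightly higher on the Na2S3 array and its scaled ratio lower than 0. The 4 probes of the gene gave ratios from -0.22 to -0.15. Pooled over repeat probes at signals from 16384 to 32768, the single-spot SD was 0.07.

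Signal and probe position are given beside these ratios. Subunit probes were bright, 73 of 76 above the 75th percentile of the water array, with a median signal of 18127 against 806 for all genes. Bright probes of other genes, among them the cytosolic ribosomal proteins, also had low ratios. Above a signal of 32768, the median was -0.19 for 341 other genes and -0.23 for 18 subunit genes. From 16384 to 32768 it was -0.09 for 401 other genes and -0.21 for 22 subunit genes, and from 8192 to 16384 it was -0.07 for 792 and -0.12 for 16. The 9 subunit genes from 4096 to 8192 had a median of -0.09, the 6 from 1024 to 4096 -0.13, the 2 from 256 to 1024 -0.37 and the 3 below 64 -0.31. The other genes in these bins had medians of -0.05, -0.0068, 0.0094 and -0.09 in that order. The subunit genes had the lower median in every bin that held any. The bins with 2 and 3 subunit genes add little to this, and below 64 the error of a ratio is 0.36. Within the 76 genes themselves the ratio hardly followed the log2 signal (Pearson r -0.07, or -0.30 over the 69 genes above 2048, across genes, which share the same pair of arrays).

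The probes of subunit genes start early in their transcripts. The median start given in the files was base 445 for subunit genes and base 1858 for all genes. Among other genes the median ratio went from -0.18 for probes starting before base 300 to 0.03 for those starting at base 4000 or later. For signals of at least 16384 and starts from base 300 to 500, the median was -0.22 for 93 other genes and -0.22 for 21 subunit genes. For starts before base 300 it was -0.22 for 57 other genes and -0.22 for 9 subunit genes, and from base 500 to 800 it was -0.19 for 113 and -0.19 for 7. In these bright bins, other genes with equal probe starts thus had the same median ratios as the subunit genes, rounded to 2 decimals. These other genes include cytosolic ribosomal proteins, a set with a median signal of 103954 and a median ratio of -0.22 over 85 measured genes. The bins were not compared with that set left out. Below a signal of 16384 the subunit medians were lower. At starts before base 300 the median was -0.20 for 6 subunit genes against -0.17 for 404 other genes. From base 300 to 500 it was -0.23 for 8 against -0.11 for 681, and from base 500 to 800 -0.11 for 10 against -0.09 for 1067. These bins take in all signals below 16384, so subunit and other genes were not matched for signal within them. The part of signal in these gaps was not tested.

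**Figure D3:**
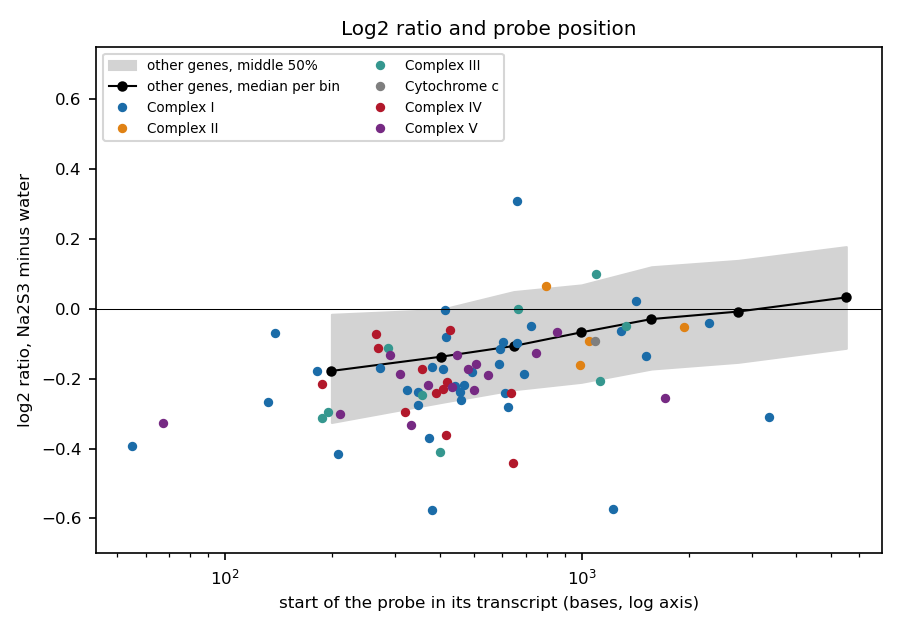
Log2 ratio (Na2S3 minus water, vertical axis) against the start of the probe in its transcript (bases, log axis) for the 76 subunit genes, coloured by complex. Black points are medians of the other genes in 7 bins of probe start, drawn at each bin's median start, and the grey band is their middle 50%. The medians go from -0.18 to 0.03 from left to right, and most subunit genes lie at the left, where the band is low.

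Roles also differed in these measures. In complex I the median start was base 690 and the median signal 5412 for the catalytic core, against base 430 and 16304 for the other subunits. In complex III they were base 1113.5 and 9870 for the larger subunits, against base 287 and 25620 for the small ones. The part of probe start and signal in these differences was not tested.

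The cytosolic ribosomal proteins, another set of short abundant transcripts, had a median of -0.22 over 85 measured genes. Of these, 84 were below 0 (98.8%), against 56.6% of all genes. The proteasome subunits, most of whose transcripts also code for the parts of a large complex, had a median of -0.04 over 39 genes. Of these, 22 were below 0 (56.4%). This list was taken by name (Psma, Psmb, Psmc or Psmd), and some of its genes, such as Psmc3ip, are matched by name only. The subunit median of -0.19 lies between these 2 sets, but this order depends on the processing. With quantile normalization the ribosomal median was -0.0070 and the subunit median -0.063. With loess they were -0.031 and -0.057, and in the deposited table -0.011 and -0.062. The subunit median was thus below the ribosomal one in these settings.

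Processing changed the size of the group's shift and, for single genes, the side of 0. Quantile normalization of the 2 arrays gave a subunit median of -0.06 and loess on signal gave -0.06, with 59 and 56 of 76 genes below 0, while the median of all genes was 0.0071 and 0.02. The gap to all genes was thus -0.07 in both, in place of -0.15. Leaving out the setting with no scaling, 56 of the 76 genes were below 0 in all 9 settings that kept the filter on dim probes, 3 were above 0 in all of them (Ndufv1, Sdhb and Uqcrc1), and 17 changed sign. With the setting without scaling included, 35 of 76 were below 0 throughout. Ndufb2 was at -0.50 with quantile normalization and -0.37 without scaling, and Uqcrq at -0.22 and -0.20. Cox6a1 was at 0.20 with quantile normalization and 0.15 with loess, so it has no settled direction. The core subunits of complex I stayed above the others, by 0.13 as reported, 0.06 with quantile normalization and 0.08 with loess.

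**Figure D4:**
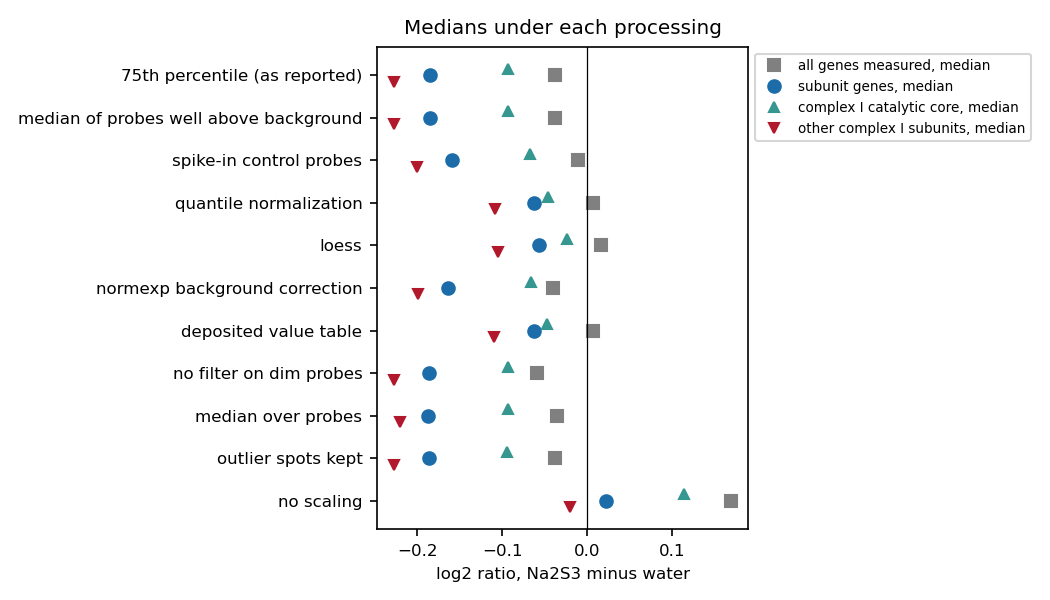
Median log2 ratio (Na2S3 minus water, horizontal axis) of all measured genes, of the subunit genes, and of the core and other subunits of complex I, under each processing (vertical axis). The subunit median lies left of the median of all genes in each line, at -0.19 as reported, at -0.06 with quantile normalization and at 0.02 without scaling.

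Nuclear genes of the respiratory chain are known targets of the transcription factors NRF1, GABPA (an ETS factor) and YY1. In RefSeq promoters of the GRCr8 assembly, 250 bases before to 50 after the start, 69 of the 81 subunit genes were matched. Motifs were searched on both strands. The NRF1 motif (GCGCA, any base, then GCGC) was in 13 of these 69 promoters (18.8%), against 4.25% of all 33469 promoters. The ETS motif CCGGAAG was in 19 (27.5%), against 8.75%, and the YY1 motif AAGATGGC was in 15 (21.7%), against 3.17%. At least 1 of the 3 was in 38 promoters (55.1%), against 14.6%. No match of one motif overlapped a match of another in the subunit promoters. A match is a description of the letters and not a binding site.

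The ratios of genes with and without each motif are set side by side. Genes with the NRF1 motif had a median ratio of -0.22 and those without it -0.19. For the ETS motif the medians were -0.24 and -0.19, and for YY1 they were -0.17 and -0.22. The promoters of the highest and the lowest gene of complex III are shown as examples of the motifs, with capitals marking each match. That of Uqcrc1 lies at chr8:118467973-118468272, plus strand, and holds the NRF1 and the YY1 motif. That of Uqcrq lies at chr10:38089929-38090228, minus strand, and holds the ETS motif.
Uqcrc1: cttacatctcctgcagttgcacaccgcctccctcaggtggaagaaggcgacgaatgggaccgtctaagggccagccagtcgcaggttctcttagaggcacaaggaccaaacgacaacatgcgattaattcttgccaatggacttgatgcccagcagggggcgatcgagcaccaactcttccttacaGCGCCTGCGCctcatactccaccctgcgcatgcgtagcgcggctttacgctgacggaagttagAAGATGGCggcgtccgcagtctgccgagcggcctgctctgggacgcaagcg
Uqcrq: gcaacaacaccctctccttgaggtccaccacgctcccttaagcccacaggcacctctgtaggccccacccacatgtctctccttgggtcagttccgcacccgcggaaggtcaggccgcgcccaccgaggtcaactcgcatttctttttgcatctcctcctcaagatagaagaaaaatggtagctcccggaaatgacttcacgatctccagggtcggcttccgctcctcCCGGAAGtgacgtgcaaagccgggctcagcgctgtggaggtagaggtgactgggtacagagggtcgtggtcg

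The factors themselves differed little between the arrays. Nrf1, the factor that binds the first motif, read 328 and 361, a ratio of -0.07. Gabpa was at -0.08, Yy1 at 0.0052 and Tfam, which packages mitochondrial DNA and helps start its transcription, at 0.04. Over the 24 measured of 26 regulators of mitochondrial biogenesis the median was 0.04. Of them 9 were below 0 (37.5%), against 56.6% of all genes, and 0 reached 1.5-fold, against 6.37%. Beside that share, a count of 0 among 24 genes says little. The highest was Foxo3, a stress-responsive transcription factor, at 3095 and 4497 with a ratio of 0.33. The lowest was Mterf4 (Mterfd2 in the file), needed for the mitochondrial ribosome, at 502 and 388 with a ratio of -0.58. The coactivator gene Ppargc1a was not well above background, and Ppargc1b was so on 1 array alone.

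Of 150 measured genes in 4 neighbouring parts of the pathway, 2 were past 2-fold, or 1.33%, against 1.56% of all genes. The 44 assembly factors, which build the complexes but are not part of them, were all measured and had a median of -0.15. Of them 29 were below 0 (65.9%), against 56.6% of all genes, and none reached 1.5-fold, against 6.37%. Ndufaf4, an assembly factor of complex I, was the highest at 847 and 1341, a ratio of 0.45 with an error of 0.08. Coa5, an assembly factor of complex IV, was the lowest at -0.39. The citric acid cycle enzymes (18 of 19 measured) had a median of -0.07, from Pdha1, of pyruvate dehydrogenase, at -0.33 to Idh3a at 0.11.

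Among 18 genes of coenzyme Q synthesis and electron entry, all measured and with a median of -0.04, Coq10b stood apart. It codes for a coenzyme Q binding protein of the inner membrane. Its signals were 3087 and 7884, which is 2.21-fold higher on the Na2S3 array (ratio 1.14, error 0.10), and its ratio ran from 1.14 to 1.20 over the settings with scaling or normalization. Sqrdl, sulfide:quinone oxidoreductase (now Sqor), read 2171 and 2340, a ratio of -0.10 with an error of 0.09. The lowest of these genes was Etfa, which carries electrons from fatty acid oxidation, at -0.30. The mitochondrial ribosomal proteins translate the subunits encoded in mitochondrial DNA. They were taken by name, which also matched Mrps36 (now Kgd4). Their median was -0.13 over 70 measured of 72, with 53 below 0 (75.7%). Their highest member, Mrpl43, read 108 and 415, a ratio of 1.74 from 1 spot, or 1.31 with normexp background correction. The lowest, Mrpl16, was at -0.49.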

How the data were processed

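Total RNA of 1 water and 1 Na2S3 culture was read on 1-colour arrays. The deposited scanner output gives linear intensity per spot, background-subtracted by Agilent Feature Extraction 10.7.1.1, per the file headers. The submitters' processing notes name 9.5.1.1. The deposited value table also holds intensity. Its normalization by the authors is unstated; both columns share a median of 19.3 and track their own array (r = 0.99997 across log2 probe values for water). Coordinates are those of the files (rn4).

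From 58717 non-control spots, those marked as outliers were left out (448 on the water array, 390 on the Na2S3 array). Log2 processed signals were averaged over spots, and the 75th percentile was subtracted. A probe was well above background where more than 50% of its spots carried that mark. Gene names are those in the files, with current symbols through GRCr8 accessions (21109 probes). Each gene is represented by the brightest of its probes above background on both arrays. The settings tried instead were scaling by the median probe above background or by spike-in probes, quantile normalization, loess and normexp with offset 50 (limma 3.58.1, R 4.3.3), the deposited table, no filter, the median over probes, outlier spots kept and, added after the data were seen, no scaling. The calculation of medians and counts was run on simulated data with spot noise alone. Only the subunit median was checked against the value put in. Python 3.11.15, numpy 2.4.6, pandas 2.3.3 and matplotlib 3.10.9 were used.

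The members, lists and naming rule were chosen with earlier results of these data known. Named are the 3 highest and 3 lowest genes of each complex, a fixed panel of 18 genes from Sdha to Atp5c1, tissue-restricted isoforms, genes on 1 array alone, genes whose probes differ in sign by more than 0.3, and the highest, the lowest and any gene past 1.5-fold of each pathway list. Other genes named, among them Ndufb4, Ndufa10, Ndufa10l1, other core subunits, Uqcrb, Uqcr10, Ndufa4, Atp5g1, Atp5g2, Sqrdl, Nrf1, Gabpa, Yy1, Tfam, Ppargc1a and Ppargc1b, were chosen after their values were seen. Individual values of 1 gene are not reported here.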

Additional observations from a re-analysis of the deposited data

How the results depend on the processing

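Scaling to the median of probes above background or to spike-in probes, the median over probes and keeping outlier spots moved no subunit median by as much as the median spot error of 0.07, and none of the 76 subunit genes reached 1.5-fold under them. Quantile normalization gave medians of -0.063 for all subunit genes, -0.094 for complex I, 0.0028 for II, -0.052 for III, -0.0017 for cytochrome c, -0.061 for IV and -0.075 for V. Loess gave -0.057, -0.091, 0.011, -0.066, 0.012, -0.078 and -0.057 in that order, and the deposited table -0.062, -0.092, 0.0037, -0.052, -0.0032, -0.067 and -0.076. No scaling, added after the data were seen, gave 0.022, 0.029, 0.14, 0.00018, 0.12, -0.015 and 0.019. Normexp gave -0.11 for complex III and 1 gene past 1.5-fold, Ndufb2 at -0.61. With no filter on dim probes 2 genes were past 1.5-fold and 2 past 2-fold, Ndufa4l2 and Cox8b, while 18.8% of all genes were past 1.5-fold. Of the 76 single genes, 54 moved by their spot error or more under quantile normalization, 56 under loess, 55 in the deposited table, 73 without scaling, 8 under normexp and 8 with the median over probes. The causes were not tested. No paired analysis was possible because each group has 1 array. Low signal limits Ndufs4, Ndufc1, Ndufa10, Ndufa4l2 and Cox8b, whose signals are below 64 on both arrays.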

Other observations

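A few genes of the same complexes carry names in the files that the rule did not match, and they are given here as values. Cox6b1, the general isoform next to Cox6b2 and listed under a LOC name, read 504 on the water array and 497 on the Na2S3 array, a log2 ratio of -0.23. Ndufa13 of complex I, also under a LOC name, gave -0.28 and -0.21 with its 2 probes. Atp5mk (Usmg5 in the files), a small membrane subunit of ATP synthase, gave between -0.34 and -0.30 with 4 probes. Atp5if1 (Atpif1 in the files), which inhibits the ATPase activity of complex V, read 24745 and 30249, a ratio of 0.08, and stood above every measured subunit of that complex, the highest of which was Atp5f1 at -0.07.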
